A study of Mus musculus with 5 samples.

Results

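The miRNAs of the Sfmbt2 intron cluster are the mouse miR-297, miR-466, miR-467 and miR-669 families. Members were taken by name: every mature miRNA of the deposited count sheet whose name begins with 1 of these family names, followed by a letter or a hyphen. Of the 736 mature names in the sheet, 68 met this rule. Counts were found for 41 of the 68 in at least 1 library, and the other 27 had none. Many of these names share a sequence, so that the 41 names came down to 28 distinct counted sequences among 512 counted miRNAs. The test across all miRNAs took in 11 of the 28, since the other 17 did not reach its minimum count.

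Small RNA was sequenced from testes of C57BL/6 mice aged 6 months, with 2 wild-type and 3 Mtdh-/- libraries. Mtdh-/- mice have lost exon 3 of Mtdh, which codes for metadherin, and the labels name no further allele, transgene or treatment in either group. Mtdh is not a miRNA, so these files do not check the genotype. The titles number the libraries, and no label states that each is a different mouse; p-values therefore speak only of how far these samples differ, and that spread may be technical.

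The libraries held 118475 to 720259 miRNA counts. Levels are given in CPM, counts scaled to a common total of miRNA counts per library. An uncounted miRNA could still have been present at 15.1 CPM in wild type 1, 6.32 in wild type 2, 4.17 in Mtdh-/- 1, 25.3 in Mtdh-/- 2 and 11.6 in Mtdh-/- 3, the level of 3 counts in each. These limits, and the intervals of shares given later, cover counting error only. The smallest count above 0 in the sheet was 2, so a blank may stand for a single count, and the true limits may be higher. All 14 germ-cell miRNAs of a fixed marker list, mainly the X-linked cluster with miR-34 and miR-449, were counted in every library. Summed, they came to 129425 and 139527 CPM in wild type, and 55632 to 102851 CPM in Mtdh-/-. Both Sertoli-cell miRNAs were also counted in every library, with a sum of 1020 to 2856 CPM, of which miR-202-3p made up 25.2 to 219 CPM. Summed levels over the 5 libraries ran from 72025 to 120083 CPM for smooth muscle and stroma, 1058 to 1601 for blood, 270.1 to 1795 for striated muscle, 959 to 2148 for epithelium and 1460 to 11160 for endothelium. In whole testis, fewer cells of a type and less RNA per cell cannot be told apart.

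Sfmbt2 codes for a Polycomb protein and is imprinted in mouse extraembryonic tissue, where the paternal copy is expressed. An intron of the gene carries a large tandem array of miRNA hairpins that is found in rodents and is known to be needed for normal placental growth. Each hairpin can give a miRNA from its 5p arm and from its 3p arm, and bases 2 to 8 of the mature miRNA, the seed, choose most of its target mRNAs.

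The GENCODE M21 annotation (GRCm38) placed 68 of the 69 member precursors of the sheet. Of these, 65 lay within Sfmbt2, on chromosome 2 from 10370510 to 10595253 on the plus strand. All 65 were in intron 10 of the gene (10461473 to 10523944, of a transcript with 23 exons), on the strand of Sfmbt2. The first hairpin began at 10466663 and the last ended at 10518279, a span of 51.6 kb. The exceptions to the cluster label were the hairpins of miR-466i, on chromosome 13, and of miR-466k and miR-466q, on chromosome 3. The precursor mir-297a-1 was not placed.

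Within the intron the subfamilies alternated. There were 25 miR-669, 21 miR-466, 14 miR-467 and 5 miR-297 hairpins, and 54 of the 64 neighbouring pairs joined hairpins of different subfamilies. The median distance between starts of neighbouring hairpins was 296 bases (range 214 to 2673). A 5p name was listed for 63 of the 65 hairpins, and 55 of the 63 had counts under that name. A 3p name was listed for 64, and 43 of these had counts.

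**Figure D1:**
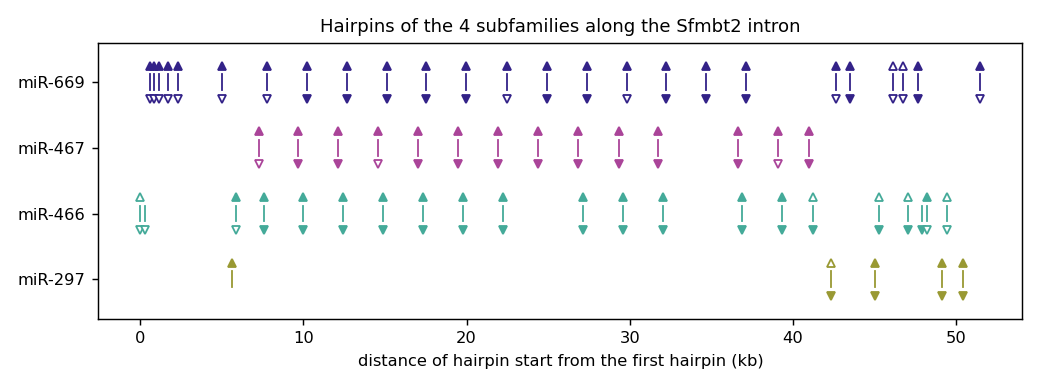
Position of the 65 hairpins within Sfmbt2 as distance in kb from the first hairpin, by subfamily. Triangles above and below a line stand for the listed 5p and 3p names and are filled where that name had counts in any library; a filled triangle at a hairpin of many copies stands for a sequence that several hairpins share. Filled 5p triangles are at 55 hairpins and filled 3p triangles at 43.

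The hairpins of the most abundant 5p member, of the member most abundant in 3 of the 5 libraries among the 5p arms, and of a 3p member are shown to place both arms. Capitals mark the mature sequences of the sheet, within hairpin sequences of GENCODE M21 on GRCm38, plus strand. Mir467e lies at chr2:10505721-10505807, Mir669c at chr2:10509296-10509404 and Mir466d at chr2:10511967-10512062.
mir-467e: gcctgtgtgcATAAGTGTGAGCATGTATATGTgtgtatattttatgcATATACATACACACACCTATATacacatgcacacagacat
mir-669c: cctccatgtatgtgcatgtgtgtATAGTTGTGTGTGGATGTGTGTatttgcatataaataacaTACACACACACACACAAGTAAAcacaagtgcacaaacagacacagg
mir-466d: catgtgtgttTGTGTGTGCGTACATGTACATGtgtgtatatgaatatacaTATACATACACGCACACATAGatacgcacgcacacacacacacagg

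The mature sequences of the 11 tested members follow, as the deposited sheet gives them (T for U), 5′ to 3′, with the seed in capitals. They carry the results on levels, and they show that members of 1 subfamily differ by few bases but often in the seed or in the first base.
miR-467a-5p: tAAGTGCCtgcatgtatatgcg
miR-467c-5p: tAAGTGCGtgcatgtatatgtg
miR-467d-5p: tAAGTGCGcgcatgtatatgcg
miR-467e-5p: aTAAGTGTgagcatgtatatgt
miR-669a-5p: aGTTGTGTgtgcatgttcatgtct
miR-669l-5p: aGTTGTGTgtgcatgtatatgt
miR-669d-5p: aCTTGTGTgtgcatgtatatgt
miR-669o-5p: tAGTTGTGtgtgcatgtttatgt
miR-669c-5p: aTAGTTGTgtgtggatgtgtgt
miR-669a-3p: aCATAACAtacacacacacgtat
miR-466a-3p: tATACATAcacgcacacataaga

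Positions are counted from 1 at the 5′ end of the second named miRNA of each comparison. miR-467c-5p differs from miR-467a-5p by C8G and C21T, and miR-467d-5p from miR-467c-5p by T9C and T21C. miR-467e-5p begins 1 base earlier than miR-467c-5p, and the remaining 21 bases differ by C7T and T9A. miR-669l-5p differs from miR-669a-5p by T17A and C18T and keeps its seed, while miR-669d-5p has G2C in addition and with it another seed.

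The 68 names carry 35 seeds, and the 41 counted names 24. miR-669a-5p, miR-669f-5p, miR-669l-5p and miR-669p-5p share GTTGTGT. miR-467c-5p and miR-467d-5p share AAGTGCG. miR-466a-3p, miR-466d-3p, miR-466e-3p and the 3 counted miR-297-3p names share ATACATA. These are seeds of the listed sequences, and the most abundant counted form may have another. For the 3 miR-297-3p names it has TATACAT, and for miR-466a-3p and miR-466e-3p it has TACATAC. The seed AAGTGCC of miR-467a-5p was the only 1 of the 35 that a miRNA of the sheet outside the families also carries, namely miR-290-3p and miR-292-3p, members of the miR-290 cluster known from mouse embryonic stem cells.

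Base composition divides the arms. The letters TGTGTG occur in 26 of the 32 mature 5p sequences (81.25%), in 0 of the 36 3p sequences and in 7 of the 668 other mature miRNAs of the sheet (1.05%). ACACAC occurs in 26 of the 36 3p sequences (72.2%), in 0 of the 32 5p sequences and in 5 of the 668 others (0.749%). Mature miRNAs are single strands and were searched as written; on the opposite strand ACACAC reads GTGTGT, which overlaps TGTGTG. G and T together make up a median of 70.2% of a 5p sequence (59.1 to 100) and 22.7% of a 3p sequence (9.52 to 40.9), against 54.5% of the others.

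Of the 28 counted sequences, 7 stood for more than 1 name, 20 names in all. The largest group joined miR-466a-3p, miR-466b-3p, miR-466c-3p, miR-466e-3p and miR-466p-3p, whose most abundant sequence was the same. That of miR-466b-5p was also listed for miR-466k, miR-466o-5p and miR-466p-5p, and that of miR-297a-3p for miR-297b-3p and miR-297c-3p. The pairs were miR-467a-5p with miR-467b-5p, miR-467a-3p with miR-467d-3p, miR-669a-5p with miR-669p-5p and miR-669a-3p with miR-669o-3p. Each group is reported under its first name. The most abundant sequence of miR-466a-3p occurs in 15 annotated hairpins, that of miR-669a-5p in 15, of miR-669a-3p in 13 and of miR-467a-5p in 12, all within Sfmbt2, so their counts cannot be assigned to 1 hairpin. Those of miR-467c-5p, miR-467d-5p, miR-467e-5p, miR-669c-5p, miR-669l-5p and miR-669o-5p each occur in 1 hairpin. Some counted sequences also occur in hairpins outside Sfmbt2. That of miR-297a-5p is in 3 hairpins within the gene and 2 elsewhere, that of miR-466b-5p in 9 and 1, and that of miR-466i-3p in 1 and 1. Their counts may thus come in part from outside the cluster.

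The members were a small part of testis miRNA, with shares (95% Wilson intervals) of 0.0700% (0.0593 to 0.0826) for wild type 1 and 0.204% (0.192 to 0.218) for wild type 2. In Mtdh-/- 1, 2 and 3 they were 0.296% (0.284 to 0.309), 0.102% (0.0855 to 0.122) and 0.0735% (0.0638 to 0.0847). Mtdh-/- 1 was highest and wild type 2 next, and the genotypes overlapped: the intervals of wild type 1 and Mtdh-/- 3 met. In CPM the wild-type sum was 1372 ± 951 (SD, n = 2) and the Mtdh-/- sum 1573 ± 1212 (SD, n = 3). The mean of the log2 sums was 0.13 higher in Mtdh-/-, with an SD of 1.07 between libraries of 1 genotype. A score over chosen members gets no test here. The difference became -0.47 when Mtdh-/- 1 was left out, -0.65 when wild type 1 was and 0.90 when wild type 2 was.

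The variation came from the 5p arms. Their sum stood at 408 CPM in wild type 1, 1740 in wild type 2, 2860 in Mtdh-/- 1, 726 in Mtdh-/- 2 and 488 in Mtdh-/- 3. The 3p sum stood at 292, 305, 103, 295 and 248 CPM in the same order. Thus the 2 libraries with the highest 5p sums were 1 of each genotype, while the 3p sum lay between 248 and 305 CPM in the other libraries and was lowest in Mtdh-/- 1. The genotypes overlapped for the 5p arms. For the 3p arms every Mtdh-/- library but Mtdh-/- 2 was below both wild-type libraries.

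By subfamily, miR-467 5p arms gave 252 and 539 CPM in wild type and 1815, 312 and 205 CPM in Mtdh-/- 1, 2 and 3. miR-669 5p arms gave 156 and 1135 CPM in wild type and 979, 414 and 282 CPM in Mtdh-/-. Wild type 2 and Mtdh-/- 1 were thus the high libraries in both subfamilies, but wild type 2 led for miR-669 and Mtdh-/- 1 for miR-467. miR-466 3p arms gave 196 and 200.1 CPM in wild type and 65.3, 203 and 201 CPM in Mtdh-/-, with Mtdh-/- 1 alone below the others. miR-466 5p arms and miR-297 were counted in wild type 2 and Mtdh-/- 1 only, at 48.4 and 50.0 CPM for miR-466 5p and 29.5 and 20.8 CPM for both miR-297 arms.

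**Figure D2:**
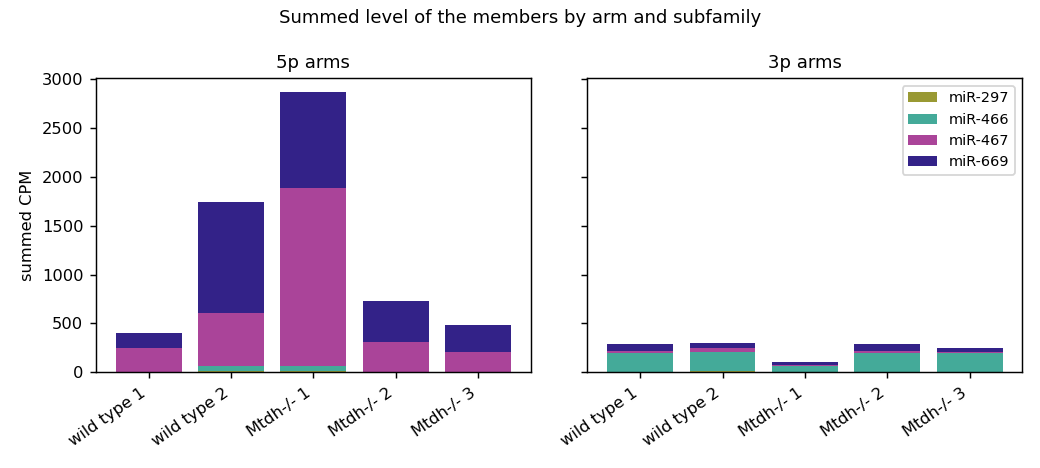
Summed CPM of the members in each library, 5p arms on the left and 3p arms on the right, with bars stacked by subfamily from 0. The 5p bars run from 408 CPM in wild type 1 to 2860 in Mtdh-/- 1, and the 3p bars from 103 CPM in Mtdh-/- 1 to 305 in wild type 2.

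Wild type 2 and Mtdh-/- 1 also had the largest totals, 474839 and 720259 counts against at most 258433 in the others. Of the 4 listed endothelial names 2 were in the sheet, both counted in every library. miR-126-3p stood at 1022 and 4309 CPM in wild type and 10446, 937 and 1764 in Mtdh-/-, highest in the same libraries, while miR-126-5p stood at 2155 and 1304 CPM in wild type and 714, 523 and 1923 in Mtdh-/-, which was not. The stromal miR-199a-5p was also highest in these libraries, at 20.1 and 173 CPM in wild type and 2210, 67.5 and 96.7 in Mtdh-/-. So were the germ-cell markers miR-449a-5p, miR-470-5p and miR-471-5p. The other listed markers of any cell type were not, so the pattern was not particular to endothelium. The part of depth and of these miRNAs in the result was not tested.

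miR-467e-5p, from a hairpin 39.1 kb into the array, was the most abundant member on average. It stood at 116 CPM in wild type 1, 232 in wild type 2, 1412 in Mtdh-/- 1, 84.4 in Mtdh-/- 2 and 85.1 in Mtdh-/- 3. Mtdh-/- 1 was far above the rest, and the other Mtdh-/- libraries were below both wild types. In Mtdh-/- 1 it held 47.7% of the members' counts and ranked 54 among all miRNAs, against 8.26% to 16.5% and ranks 148 to 200 in the other libraries. Its log2 fold change (Mtdh-/- minus wild type) was 2.15 ± 1.54 (SE), with a Benjamini-Hochberg adjusted p of 0.867 over 246 miRNAs in edgeR's quasi-likelihood fit. Without Mtdh-/- 1 it was -1.07.

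miR-467c-5p (7.27 kb) followed the same libraries, with 30.2 and 192 CPM in wild type and 297.1, 33.8 and 46.4 CPM in Mtdh-/- 1, 2 and 3. Again wild type 2 and Mtdh-/- 1 were high, and the genotypes overlapped. The log2 fold change of 0.78 ± 1.28 turned to -1.40 without Mtdh-/- 1. miR-467d-5p, which has the same seed and lies at 41.0 kb, varied less, with 30.2 and 54.8 CPM in wild type and 73.6, 76.0 and 42.6 CPM in Mtdh-/-. Wild type 1 was lowest and Mtdh-/- 3 fell between the wild types. Its log2 fold change was 0.82 ± 0.83.

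miR-467a-5p, which shares its seed with miR-290-3p and miR-292-3p and comes from many hairpins, went another way, with 75.5 and 61.1 CPM in wild type and 31.9, 118 and 31.0 CPM in Mtdh-/-. Mtdh-/- 2 was highest and Mtdh-/- 1 and 3 were lowest, on either side of the wild types, and the log2 fold change was -0.22 ± 0.87. It was lower in Mtdh-/- 1 than in Mtdh-/- 2, the reverse of miR-467c-5p and miR-467e-5p in those libraries.

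Of the miR-669 5p members, miR-669c-5p (42.6 kb) was the most abundant on average, with 85.6 and 510 CPM in wild type and 247, 253 and 201 CPM in Mtdh-/-. All Mtdh-/- libraries lay between the wild types, which differed from each other more than from any Mtdh-/- library. Its log2 fold change was -0.02 ± 0.73, and 1.36 without wild type 2. miR-669a-5p, a miRNA known to hold back the muscle factor MyoD in mouse cardiac progenitors, stood at 60.4 and 356 CPM in wild type and 394, 118 and 50.3 CPM in Mtdh-/-. Mtdh-/- 1 and wild type 2 were high, and the Mtdh-/- libraries spanned the wild types. Its log2 fold change of 0.39 ± 1.14 became -1.33 without Mtdh-/- 1.

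The remaining tested miR-669 5p members were low. miR-669o-5p (47.6 kb) had 0 and 124 CPM in wild type and 88.9, 0 and 23.2 CPM in Mtdh-/-. miR-669l-5p (2.31 kb), with the seed of miR-669a-5p, had 0 and 40.01 CPM in wild type and 48.6, 0 and 7.74 CPM in Mtdh-/-. Both were counted in wild type 2 and not in wild type 1, and their log2 fold changes were -0.04 ± 1.72 and 0.59 ± 1.72. miR-669d-5p, found in 2 hairpins near the start of the array, had 10.1 and 21.1 CPM in wild type and 122, 42.2 and 0 CPM in Mtdh-/-. Mtdh-/- 1 and 2 were above both wild types and Mtdh-/- 3 had no counts. Its log2 fold change, 2.25 ± 1.72, had the largest size of the 11. Only Mtdh-/- 1 and 2 reached the level that the minimum count requires. Its entry into the test thus depended on the libraries where it was highest, which favours a large positive value.

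The 3p members tested were miR-466a-3p and miR-669a-3p. miR-466a-3p stood at 161 and 131 CPM in wild type and 48.6, 169 and 170 CPM in Mtdh-/-, so that Mtdh-/- 1 was lowest and the other Mtdh-/- libraries were above both wild types. Its log2 fold change was -0.19 ± 0.68. miR-669a-3p stood at 75.5 and 59.0 CPM in wild type and 23.6, 76.0 and 38.7 CPM in Mtdh-/-, again lowest in Mtdh-/- 1, with a log2 fold change of -0.57 ± 0.83.

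**Figure D3:**
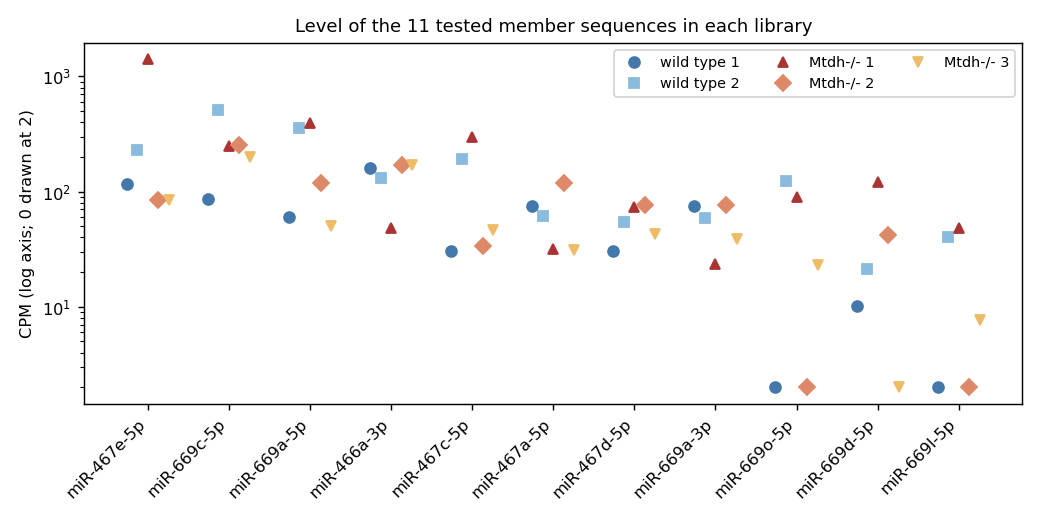
CPM of the 11 tested member sequences on a log axis, ordered by mean level, with 1 symbol per library and values of 0 drawn at 2. For miR-467e-5p the symbol of Mtdh-/- 1 is at 1412 CPM and the others are between 84.4 and 232 CPM; for the 3p member miR-466a-3p the symbol of Mtdh-/- 1 is the lowest, at 48.6 CPM.

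None of the members passed the test between genotypes. With edgeR (quasi-likelihood, Benjamini-Hochberg), 0 of the 11 were higher and 0 were lower in Mtdh-/-, where 0 of all 246 tested miRNAs were called in either direction (0.0% higher and 0.0% lower), and the adjusted p of the 11 ran from 0.867 to 0.987. At an unadjusted p under 0.05 there were 0 of the 11 and 7 of the 246. DESeq2 called 0 of 512 miRNAs, with 19 at an unadjusted p under 0.05, and limma 0 of 246, with 4. Fold changes were above 0 for 6 of the 11 and below 0 for 5, with a median of 0.39, against 137 above and 109 below 0 and a median of 0.19 over the 246. Of the members above 0, miR-669d-5p entered the test through Mtdh-/- libraries alone. The median SE was 1.14 for the members and 0.77 over all 246, so that the members were measured with less precision than the miRNAs at large.

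**Figure D4:**
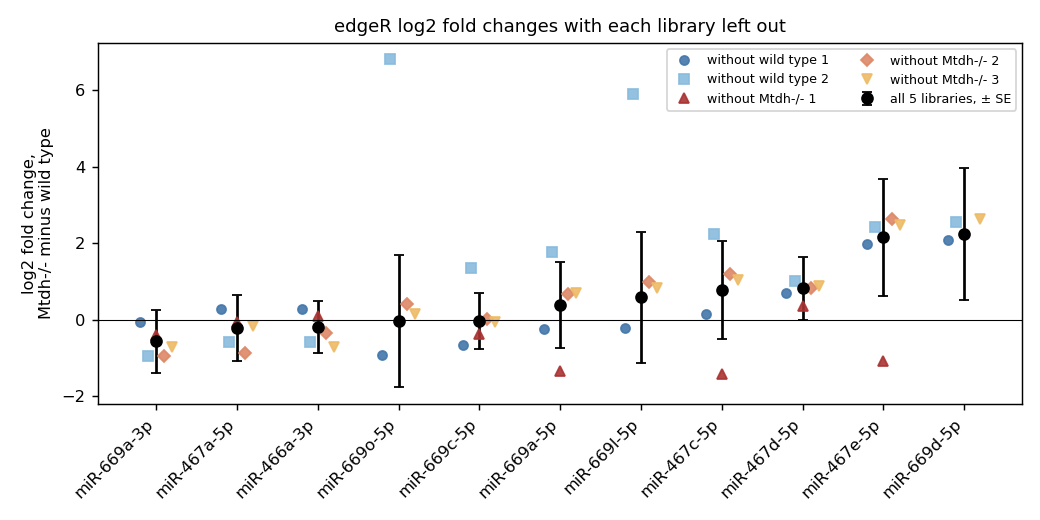
edgeR log2 fold change (Mtdh-/- minus wild type) of the 11 tested members, with black points and bars for all 5 libraries ± SE and coloured symbols for fits with 1 library left out. Leaving out Mtdh-/- 1 moves miR-467e-5p from 2.15 to -1.07; the points near 6 and 7 for miR-669l-5p and miR-669o-5p come from a wild type without counts and depend on the small count edgeR adds.

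All 11 tested members overlapped between genotypes. Of the 246 tested miRNAs, 4.88% had all Mtdh-/- values above the wild-type values and 9.35% had them all below. For as few as 11 members, 0 without overlap is near these shares. The library with the highest level was Mtdh-/- 1 for 5 of the 9 5p members, wild type 2 for 2 and Mtdh-/- 2 for 2. Mtdh-/- 1 was the highest library for 9.76% of the 246 tested miRNAs. Of the 9 5p members, 8 were higher in wild type 2 than in wild type 1, as were 66.3% of all tested. Neither 3p member was. Entry into the test fixed these tallies in part. miR-669l-5p and miR-669o-5p reached the level of the minimum count only in wild type 2 and Mtdh-/- 1. Their direction between the wild types was thus set in advance. miR-669d-5p reached it only in Mtdh-/- 1 and 2. The tallies therefore cannot be weighed against the shares over all tested miRNAs. The 6 5p members with counts in every library had a median ratio of highest to lowest library of 6.90 (2.51 to 16.7), against 4.17 for the 230 tested miRNAs with counts in every library. These are descriptions, as the members share libraries and, in part, sequence.

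The 5p and 3p counts of 1 name could be compared within a library, where the total cancels, although the hairpins behind them differ in part. The ratio of miR-669a-5p to miR-669a-3p counts was 0.800 in wild type 1, 6.04 in wild type 2, 16.7 in Mtdh-/- 1, 1.56 in Mtdh-/- 2 and 1.30 in Mtdh-/- 3. The 3p arm had more counts in wild type 1 (15 against 12) and the 5p arm in the other libraries, by 14 to 9 and 13 to 10 counts in Mtdh-/- 2 and 3 and by 284 to 17 in Mtdh-/- 1. The ratio of miR-467a-5p to miR-467a-3p counts was 3.75, 1.81, 3.29, 7 and 4 in the same order, with the 5p arm ahead everywhere. Over 42 other miRNAs with both arms counted in every library the median ratio was 4.31, 2.88, 4.70, 2.59 and 3.13. Between libraries the ratio of miR-669a varied 20.9-fold and that of miR-467a 3.86-fold. The single ratios of the 42 others varied 1.14-fold to 960-fold (median 8.77), and 10 of the 42 varied at least as much as miR-669a. The miR-669a and miR-467a arms are each shared by several hairpins, and miR-467a-3p rested on 2 to 16 counts. These are not ratios of matched arms. miR-669a-5p counts include miR-669p-5p, while miR-669a-3p counts include miR-669o-3p. miR-467a-5p counts include miR-467b-5p, while miR-467a-3p counts include miR-467d-3p. miR-669o-5p and miR-467d-5p were counted apart and are in neither ratio.

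**Figure D5:**
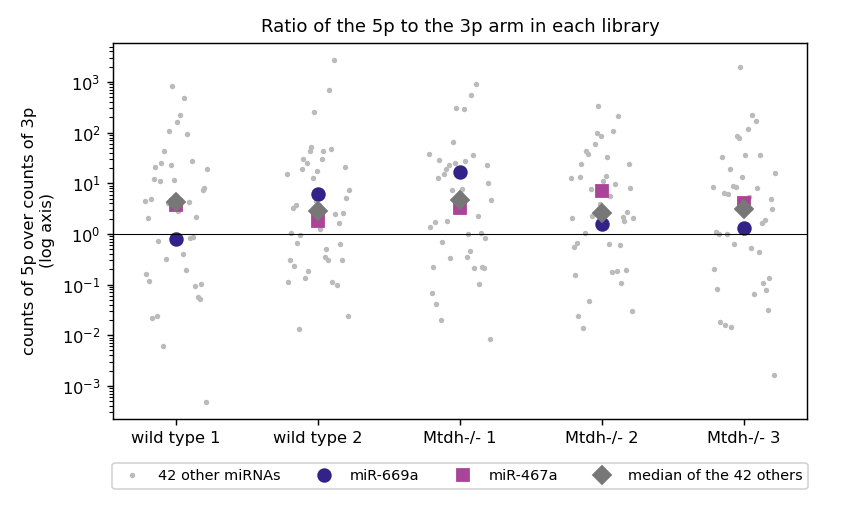
Ratio of 5p to 3p counts in each library on a log axis, for miR-669a, miR-467a, 42 other miRNAs (small points) and their median; the line marks equal counts. The miR-669a symbols run from 0.800 in wild type 1 to 16.7 in Mtdh-/- 1, within the spread of the small points in each library.

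Of the 17 counted sequences that did not enter the test, 3 had counts in every library, all from 3p arms. miR-466d-3p stood at 25.2 and 31.6 CPM in wild type and 9.72, 16.9 and 23.2 CPM in Mtdh-/-. miR-467a-3p stood at 20.1 and 33.7 CPM in wild type and 9.72, 16.9 and 7.74 CPM in Mtdh-/-. In both, every Mtdh-/- library was below both wild-type libraries, also after TMM scaling, which made them the 2 of the 28 member sequences without overlap. Among all 512 counted miRNAs 7.23% were lower in this way and 3.91% higher, so that 2 of 28 lower (7.14%) and 0 of 28 higher are near the share over all miRNAs. Both rested on few counts, 2 to 15 for miR-466d-3p and 2 to 16 for miR-467a-3p. The fit without a minimum count gave log2 fold changes of -0.72 ± 1.60 and -1.13 ± 1.70, neither called. All Mtdh-/- sums of the germ-cell markers were below the wild-type sums, although 12 of the 14 single markers overlapped and 2, miR-465a-5p and miR-465c-5p, were lower without overlap; their part in these values was not tested. miR-466g, the third, stood at 10.1 and 14.7 CPM in wild type and 6.94, 16.9 and 7.74 CPM in Mtdh-/-, with overlap.

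A further 7 sequences were counted in wild type 2 and Mtdh-/- 1 and in no other library. miR-669b-5p had 33.7 and 55.5 CPM there, above the levels of 3 counts in each of the other libraries (11.6 to 25.3 CPM). miR-669f-5p had 33.7 and 22.2 CPM, and miR-466h-5p, described in mouse cells as promoting apoptosis, had 21.1 and 24.99 CPM. All these values lay above the level of 3 counts in wild type 1 and Mtdh-/- 3, where neither had counts. As a blank may stand for a single count, depth may still allow the absences of miR-669b-5p, miR-669f-5p and miR-466h-5p. miR-297a-5p had 4.21 and 16.7 CPM, miR-297a-3p 12.6 and 4.17, miR-466b-5p 12.6 and 11.1, and miR-466c-5p 10.5 and 5.55. For these low members the absence of counts in Mtdh-/- 2 is within what its depth allows. The other 7 sequences had 2 to 7 counts in 1 library, wild type 2 for 6 of them and Mtdh-/- 1 for miR-466i-5p. The most abundant sequence of miR-466i-5p, a run of TG repeats, occurs in 0 annotated hairpins and in transcripts of 361 other genes, so its source is uncertain.

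Taking only levels that 3 counts in the shallowest library would show (25.3 CPM), 8 member sequences were found in wild type 1, 14 in wild type 2, 11 in Mtdh-/- 1, 9 in Mtdh-/- 2 and 8 in Mtdh-/- 3. Over all miRNAs the same limit gave 227, 272, 243, 268 and 254. Wild type 2 and Mtdh-/- 1 thus showed the most members, while over all miRNAs Mtdh-/- 1 had fewer than Mtdh-/- 2 and 3.

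The 27 names without counts were 7 5p and 20 3p names. Of the miR-669 3p names, 11 of 13 had none, while 10 of the 11 miR-669 5p names were counted. All 5 miR-467 5p names were counted and 2 of the 5 miR-467 3p names. In miR-466, 8 of 13 5p and 9 of 15 3p names were counted, and in miR-297, 2 of 3 and 3 of 3.

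Most members were read as trimmed or extended forms of the listed miRNA. The most abundant sequence was the exact mature one for 8 of the 28, had the same start but another end for 14 and another start for 6. In 4 of the 28 it ended in a base that the hairpin does not hold. The most abundant sequence of miR-467d-5p began 1 base before the listed one, which moves the seed from AAGTGCG to TAAGTGC, and that of miR-466a-3p began 1 base after it, which moves the seed from ATACATA to TACATAC. The latter is the listed start and seed of miR-466b-3p, miR-466c-3p and miR-466p-3p, which are counted with it, so this shift is relative to the name miR-466a-3p. Likewise the counted form of miR-466b-5p starts as the listed miR-466k. That of miR-466e-5p starts as the listed miR-466b-5p and miR-466o-5p. The number with another start thus depends in part on the name used. The counted forms of miR-467d-5p and miR-466a-3p are shown with their seed in capitals.
miR-467d-5p most abundant: aTAAGTGCgcgcatgtatatg
miR-466a-3p most abundant: aTACATACacgcacacataagac

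The exact mature sequence made up 31.7% and 26.4% of the members' counts in wild type and 36.0%, 35.5% and 32.6% in Mtdh-/-. For all other miRNAs it was 25.9% and 33.4% in wild type and 29.4%, 36.4% and 29.0% in Mtdh-/-. As a set the members were thus in the range of other miRNAs. Their 3p arms were lower, at 8.11% to 15.6%, and their 5p arms were at 28.5% to 44.4%. miR-466a-3p, with 4.66% over all libraries, was the lowest of the tested members, measured against the sequence listed under that name.

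In the authors' deposited tables of single Mtdh-/- libraries against both wild types, which use the most abundant sequence, the ratios of the listed members were 2.45 or above, or 0.5 or below. The members make up 9.24% of the names in the sheet and 7.72% of those with counts. For Mtdh-/- 1 the authors' deposited table of higher miRNAs held miR-467e-5p (ratio 9.85), miR-669d-5p (3.45) and miR-467c-5p (2.86), all 5p, 3 of 28 names (10.7%). The authors' deposited table of lower miRNAs for that library held only 3p members, miR-466a-3p and 4 further names for it (0.356 for miR-466a-3p), miR-669a-3p with miR-669o-3p, and miR-466d-3p, 8 of 86 names (9.30%). For Mtdh-/- 2 the authors' deposited tables held miR-669d-5p as higher (2.45), 1 of 111 names (0.901%), and 7 members as lower of 87 names (8.05%), among them miR-467e-5p (0.481). For Mtdh-/- 3 the authors' deposited tables held 0 members as higher among 44 names and 9 member names as lower among 54 (16.7%). In the authors' deposited table of Mtdh-/- 1 and 2 together against wild type, miR-466d-3p was 1 of 14 names listed as lower (7.14%; ratio 0.435, p = 0.00587 in that table, from a test not given in the sources used here). The authors' other 6 deposited group tables used here held 0 members. These comparisons share the wild-type libraries.

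Other imprinted miRNAs, a fixed list of Dlk1-Dio3, Mest and H19 miRNAs, gave another distribution over libraries. Of 39 listed names 30 were in the sheet, 27 had counts and 9 were tested. The sum over the list was 1324 CPM in wild type 1, 2403 in wild type 2, 1583 in Mtdh-/- 1, 2904 in Mtdh-/- 2 and 2883 in Mtdh-/- 3. Mtdh-/- 2 and 3 were thus the highest libraries here and among the lower ones for the Sfmbt2 cluster. Of the 9 tested, 7 had log2 fold changes above 0 and 2 below, with a median of 0.68 against 0.19 over all 246, and 0 were called by edgeR. Of 5 listed miRNAs outside the families that are rich in UG repeats, 2 were in the sheet. miR-574-5p had 12.6 CPM in wild type 2, 51.4 in Mtdh-/- 1 and 0 in the other libraries, and miR-574-3p had 50.6 CPM in Mtdh-/- 2 alone.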

How the data were processed

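Testis small RNA was analysed in 5 libraries, 2 wild type and 3 Mtdh-/-. Frozen testes were extracted with mirVana reagents before TruSeq library construction, per the labels' protocols. Novoalign 2.07.11 is named in the submitters' processing notes; for build, trimming and counting the sources used here give nothing. The authors deposited, per the file headers, tag counts without scaling for all isoforms, the most abundant sequence and the exact mature sequence; the smallest count above 0 was 2, and blanks were read as 0. The authors also deposited a normalized score, the tags scaled by 1 factor per library and rounded. The authors' tables give a fold ratio with 10 added to each value and, for groups of libraries, a p-value. A further 236 columns of per-library values were not used.

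The sheet's 846 lines cover 736 mature names. Each name was represented by its line of largest total, and names with an identical most abundant sequence were joined, leaving 717. For the test between genotypes, edgeR 4.0.16 (R 4.3.3) was run on the counts of all isoforms (quasi-likelihood, robust, TMM, filterByExpr on genotype, Benjamini-Hochberg, threshold 0.05), which was tested on simulated data. Each SE was computed from the log2 fold change and its F value. Alternatives used DESeq2 1.42.0, other scalings and counts, a replicate block and leaving out each library. A further alternative was limma 3.58.1 on log2 of the authors' normalized values (pseudocount 10), not on counts. Every member in the edgeR fit is named, and of the others those with counts in 2 or more libraries or at least 10 counts in 1; miR-466i-5p was named after its values were seen. The members and lists were chosen with earlier results of these data known.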

Additional observations from a re-analysis of the deposited data

How the results depend on the processing

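No member of the cluster passed the threshold under any alternative run. The count of called miRNAs stayed at 0 in each except edgeR without a minimum count. That fit called 3 miRNAs higher and 2 lower of 512, none of them a member. In it miR-467e-5p had an SE of 0.83 and an unadjusted edgeR p of 0.011 (adjusted 0.298). The main fit gave an SE of 1.54 and a p of 0.206 (adjusted 0.867). An unadjusted p under 0.05 was reached by 25 of the 512 without the minimum count. Of 110 values of the 11 tested members under alternatives other than leaving out a library, 99 kept their direction. Direction apart, limma brought miR-467e-5p from 2.15 to 0.41, miR-669d-5p from 2.25 to 0.70 and miR-467c-5p from 0.78 to 0.0071, and counts of the most abundant sequence took miR-669a-5p from 0.39 to 1.17. Of the 11 that reversed, 3 did so under the replicate block. With library totals alone miR-669a-5p was -0.14 and miR-669l-5p -0.0016 (log2). With counts of the most abundant sequence miR-466a-3p was 0.032. With counts of the exact mature sequence miR-669a-5p was -0.12 and miR-669c-5p 0.24. With limma, miR-669a-5p was -0.15, miR-669c-5p 0.12 and miR-669l-5p -0.031. Other scalings moved the median of all log2 fold changes by -0.34 (upper-quartile factors) to -0.097 (RLE size factors). The cause of these changes was not tested.

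Leaving out 1 library gave 51 values, 13 in the other direction. miR-466a-3p ranged from -0.71 to 0.29, miR-467a-5p from -0.86 to 0.27, miR-467c-5p from -1.40 to 2.25, miR-467e-5p from -1.07 to 2.63 and miR-669a-5p from -1.33 to 1.77. miR-669c-5p ranged from -0.65 to 1.36, miR-669l-5p from -0.21 to 5.91 and miR-669o-5p from -0.92 to 6.82, the last values being without wild type 2, when the remaining wild type has no counts. With 1 wild type left, that library is assumed to vary like the Mtdh-/- libraries. miR-467d-5p (0.37 to 1.01) and miR-669a-3p (-0.96 to -0.047) kept their direction. miR-669d-5p ranged from 2.08 to 2.63 in the 3 fits that kept it. Without Mtdh-/- 1 or without Mtdh-/- 2, its highest libraries, it did not reach the minimum count. Those fits, which could have turned its direction, are therefore missing.

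The genotypes share library numbers 1 and 2, but the labels tie them to no litter, batch or day. Deviations from the genotype means, over 246 miRNAs, correlated at -0.44 between the libraries numbered 1 and 0.097 between those numbered 2. A replicate block, in which Mtdh-/- 3 adds nothing to the difference, called 0 higher and 0 lower, brought miR-467e-5p to 1.35, and turned miR-467a-5p to 0.056, miR-669c-5p to 0.44 and miR-669o-5p to 0.32.

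The log2 difference of the summed level, 0.13, was 0.041 to 0.30 under 5 alternatives and -0.26 when the lines of all precursors were summed, which counts shared sequences once per hairpin. The depth limits the low members: in Mtdh-/- 2, the shallowest library, 3 counts are 25.3 CPM.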

Other observations

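The first 6 bases of the seed, AAGTGC at bases 2 to 7, were listed for 9 miRNAs of the sheet, 3 of them members (miR-467a-5p, miR-467c-5p and miR-467d-5p) and 6 not. In every library the members held most counts of the miRNAs listed with this seed. These are counts of all isoforms of each name, and not every isoform has the listed seed. The most abundant form of miR-467d-5p, which begins 1 base earlier, does not. Of the 6 others, 4 had counts. miR-295-3p, of the miR-290 cluster, had 15.1 and 6.32 CPM in wild type and 0, 33.8 and 7.74 CPM in Mtdh-/- 1, 2 and 3. miR-294-3p, of the same cluster, had 9.72 CPM in Mtdh-/- 1 and 11.6 CPM in Mtdh-/- 3, and miR-291a-3p had 2.78 CPM in Mtdh-/- 1 alone. miR-350-5p had 21.1 CPM in wild type 2 and 7.74 CPM in Mtdh-/- 3. All these values rest on 2 to 10 counts. These miRNAs were named after their values were seen.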
